A study of Mus musculus with 24 samples.

Results

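The LncMyoD plasmid was given alone, without MyoD, to C3H 10T1/2 cells, and its response was measured over 3 lines. The comparison took every library that received no MyoD: 12 of the 24 libraries in the series, 6 given the plasmid against 6 left untreated. C3H 10T1/2 is a mouse embryo fibroblast line of the C3H strain. The wild type line (WT) was set beside 2 LncMyoD knockout lines, KO1 and KO2, each of which is 1 clone per the labels. Each line gave 2 untreated libraries and 2 libraries from cells transfected with a plasmid carrying LncMyoD. No group received an empty plasmid, so the response includes any effect of transfection itself. The other 12 libraries came from the same lines infected with MyoD adenovirus, with or without the plasmid, and served as a second measurement of the plasmid response. The labels do not say whether cells given the plasmid alone had the change to horse serum. The libraries with and without MyoD may therefore differ in medium as well. The labels do not say whether the 2 libraries of a group came from separate cultures, so p-values reflect differences among these libraries alone, and these may be technical.

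LncMyoD is a long noncoding RNA made from the region upstream of Myod1, the gene of the master transcription factor that converts fibroblasts to muscle. During muscle differentiation MyoD switches it on, and it is known to bind IMP2, the RNA-binding protein encoded by Igf2bp2, which otherwise favours translation of growth genes such as Nras and Myc. Fibroblasts at rest make little of it, so the plasmid supplies the RNA in cells that lack the muscle program.

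RNA was measured as TPM, the abundance of a transcript per unit length as a share of its library. Read counts were not used here, and the coverage in the 12 libraries came to 3.06 to 5.93 gigabases per library. The KO2 libraries differed from the rest in makeup. Ribosomal sequence in a stretch of chromosome 17 made up 55.6% to 70.0% of TPM in the WT and KO1 libraries and 2.68% to 4.91% in those of KO2, and 4273 to 6838 against 12568 to 13253 genes reached 1 TPM. Values were therefore scaled between libraries by the median of ratios, and scaled TPM is compared only within a line. Fibroblast markers were present in all 3 lines: summed over 10 markers they reached 162 to 493 TPM in WT and KO1 and 11139 to 17214 TPM in KO2. Of 8 skeletal muscle markers, Myog, Mylpf, Ckm and Ttn were listed at 0 in all 12 libraries. Acta1 reached 4.49 TPM and Tnnt3 1.16 TPM, each above 0 in 4 libraries, and Mymk 1.00 TPM in 1. Summed, the muscle markers were at 0 in WT and KO1. In KO2 the sum was 4.23 to 6.66 TPM untreated and 2.64 to 2.87 TPM with the plasmid. In such bulk samples fewer cells of a type and less RNA per cell cannot be told apart. None of the library measures differed with the plasmid at a p under 0.05 in an exact two-sided permutation test within lines. The p was 0.648 for the ribosomal share, 0.426 for depth, 0.194 for the number of transcripts assembled and 0.935 for genes at 1 TPM. The share of TPM in transcripts with a gene name was higher with the plasmid in each line. It differed by 3.34 percentage points in WT, 16.2 in KO1 and 3.52 in KO2, with p of 0.25 in that test. In KO1 the groups did not overlap in this share.

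The plasmid was visible at the LncMyoD locus itself. A spliced RNA of 621 nt, without a gene name in the files, was put together on the minus strand of chromosome 7 (46345772 to 46351188, build mm10). Its first exon spans 46351041 to 46351188 (148 nt) and its second 46345772 to 46346244 (473 nt), with an intron of 4796 nt between them. The second exon lies within an annotated exon (46345771 to 46346244, 474 nt) of the lincRNA gene 1700025L06Rik, which spans 46345771 to 46349373. This structure, with identical exon borders, appeared in all 12 libraries with plasmid and in 0 of the 12 without. The sequence below is the part of the shared exon next to the splice junction, shown because it is what this RNA shares with an annotated transcript. It was read from the GENCODE vM21 transcript at chr7:46346095-46346244, minus strand, and the capitals mark the 12 bases that follow the junction.
LncMyoD shared exon: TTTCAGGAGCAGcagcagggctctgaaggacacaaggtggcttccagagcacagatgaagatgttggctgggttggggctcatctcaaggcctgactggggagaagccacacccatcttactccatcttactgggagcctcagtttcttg

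The level of this RNA in cells given the plasmid alone was 5.78 and 6.77 TPM in WT, 41.6 and 36.4 TPM in KO1, and 11.9 and 11.05 TPM in KO2. In all 6 untreated libraries nothing was listed there, so the groups did not overlap in any line. The mean over lines was 18.9 TPM higher with the plasmid, with an exact two-sided permutation p of 0.00926 within lines, the smallest that 216 permutations allow. As shares of libraries that differ in makeup, these levels are not ranked between lines. With MyoD as well, the plasmid gave 2.64 and 8.16 TPM in WT, 16.8 and 53.3 TPM in KO1, and 4.48 and 3.47 TPM in KO2. Of the libraries given MyoD without plasmid, 1 of KO1 held 0.692 TPM and 1 of KO2 held 1.95 TPM of transcripts with other exon structures at the locus. The others, both WT libraries among them, held 0 TPM there. Since WT cells without the plasmid also lacked the RNA, untreated or given MyoD, the locus tells which libraries got the plasmid. It does not check the knockout labels.

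**Figure D1:**
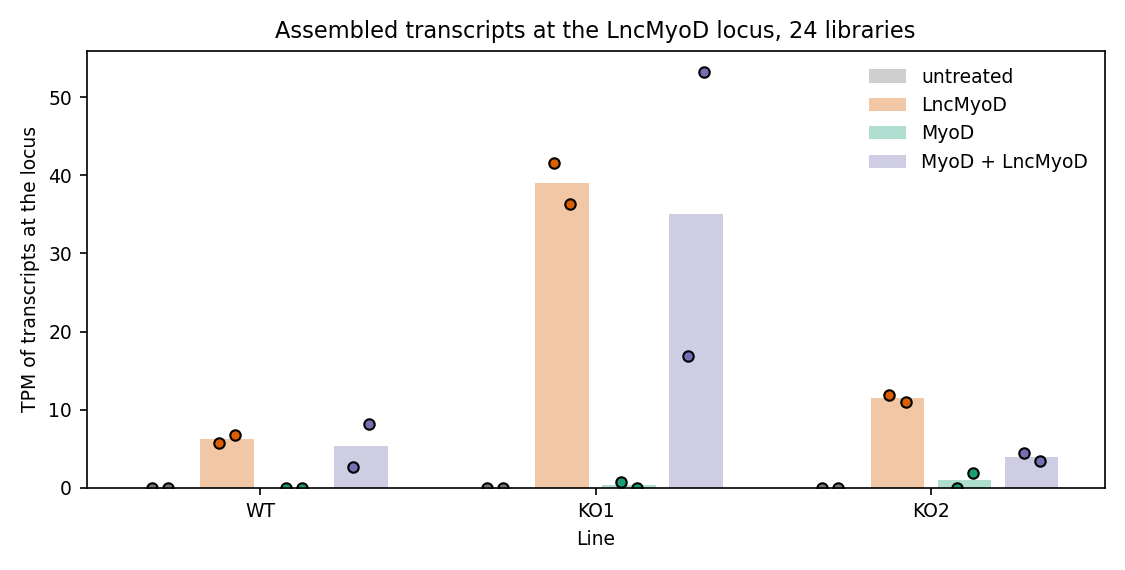
TPM of transcripts assembled at the LncMyoD locus (vertical axis) in the 24 libraries, by line and treatment; points are libraries and bars are means of 2. The orange points of the plasmid alone lie at 5.78 to 41.6 TPM, and the untreated libraries are all at 0.

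No gene outside the locus was shown to change with the plasmid across the lines. A gene counted as called when its adjusted p was under 0.05 and its change had the same sign in all 3 lines. Of 5374 genes tested with limma, 0 (0%) were called, and the smallest Benjamini-Hochberg adjusted p was 0.161, shared by Socs5 and Trir. A gene was tested if its mean was at least 1 scaled TPM in each line. Trir met this in WT and KO1 only through its plasmid libraries. At an unadjusted p under 0.05 there were 227 genes higher (4.22%) and 122 lower (2.27%), 349 in all (6.49%). That excess of higher genes depended on the scaling: over the same 5374 genes, 65.0% of those at that p were higher by the median of ratios, 45.1% with TPM as deposited, 50.3% with quantile normalization and 56.6% with scaling within each line. The median change over all genes was 0.04 on the log2 scale, and the median standard error of a gene was 0.32. Changes of the 3 lines were nearly unrelated across genes, which are not independent replicates: Pearson's r was 0.06 between WT and KO1, 0.05 between WT and KO2, and 0.01 between KO1 and KO2. The median absolute change was 0.32 in WT, 0.46 in KO1 and 0.17 in KO2.

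The genes that moved the same way in all 3 lines are given as a description. In 850 genes (15.8%) the change was positive in every line and in 605 (11.3%) it was negative in every line. Adding an unadjusted p under 0.05 left 190 higher (3.54%) and 106 lower (1.97%). In 60 genes (1.12%) both plasmid libraries lay above both untreated libraries in each line, and in 28 (0.521%) both lay below. The 8 of either kind with the smallest unadjusted p are described next; none of them was called.

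Socs5, a suppressor of cytokine signalling, was at 71.0 and 55.7 scaled TPM untreated and 129 and 141 with the plasmid in WT. In KO1 its values were 19.7 and 34.8 against 92.5 and 57.9, and in KO2 2.25 and 2.41 against 9.06 and 4.90 scaled TPM. The change was 1.25 ± 0.19 (SE) on the log2 scale, with a limma adjusted p of 0.161. Every plasmid library of a line lay above the untreated ones, and the 3 lines had changes of 1.09, 1.45 and 1.21. Mfsd5, a membrane carrier, had the smallest standard error of the 8 higher genes, at 0.61 ± 0.12 (SE). Its scaled TPM was 188 and 283 against 329 and 346 in WT, 144 and 191 against 272 and 301 in KO1, and 10.3 and 11.7 against 16.7 and 15.5 in KO2. Trir, which encodes a ribonuclease, was listed at 0 in the untreated libraries of WT and KO1. Its deposited TPM was 1.05 and 1.07 with the plasmid in WT, 0.799 and 1.24 in KO1, and 62.3 and 46.1 against 6.58 and 28.8 untreated in KO2. A value of 0 in these files can be a failed assembly, so its fitted change of 1.71 depends on the pseudocount.

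Phlda3, a p53 target that restrains the kinase AKT, had 4.60 and 5.78 scaled TPM untreated against 11.1 and 17.8 in WT. The values were 8.53 and 12.1 against 17.6 and 19.2 in KO1, and 28.6 and 59.8 against 87.8 and 76.0 in KO2, a change of 1.02 ± 0.20 (SE, adjusted p = 0.278, limma). Its 3 line changes, 1.29, 0.80 and 0.96, lay close together. Oaf had a change of 1.40 and Rnf145, a ubiquitin ligase of the sterol pathway, one of 1.31, both at an adjusted p of 0.270 in limma. Ddr2, a receptor kinase for fibrillar collagen, had the largest value, 2.02 ± 0.42 (SE), spread unevenly over the lines at 2.70 in WT, 0.46 in KO1 and 2.90 in KO2. AY036118, a noncoding gene inside the ribosomal window, had, in WT, 284188 and 209463 TPM with the plasmid against 142321 and 154293 without, and its change was 0.78. The ribosomal share of TPM moved with the plasmid by 9.33 percentage points in WT, -4.44 in KO1 and -1.19 in KO2, and its part in this value was not tested.

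**Figure D2:**
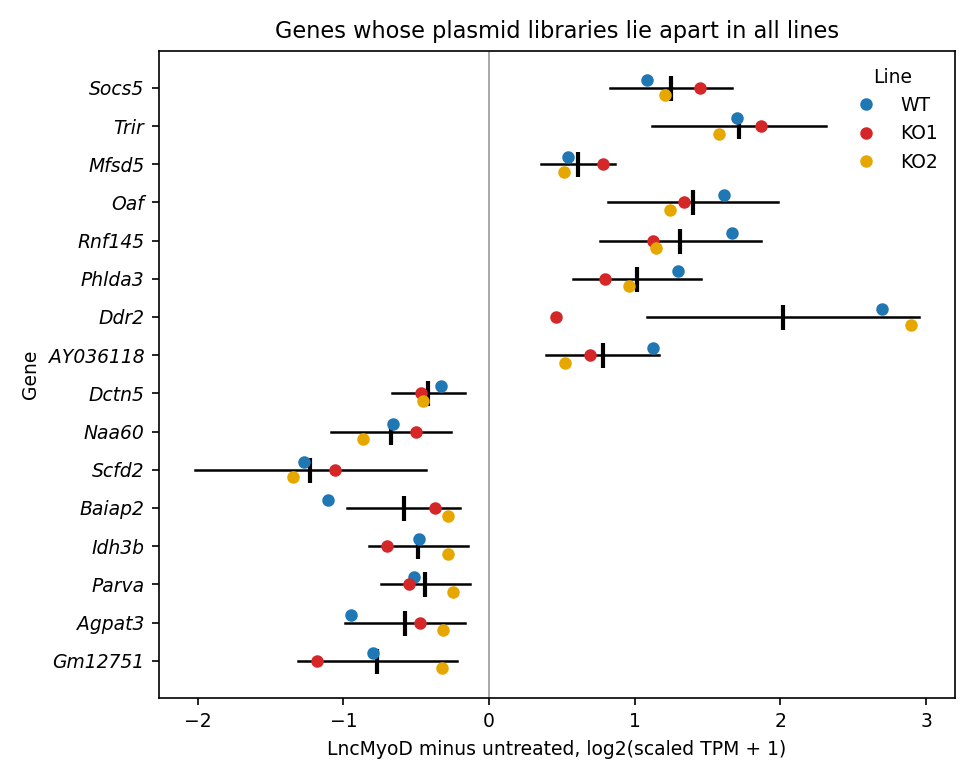
Log2 change with the plasmid (horizontal axis, log2 of scaled TPM + 1) for 16 genes whose groups lay apart in every line, the 8 of 60 higher and 8 of 28 lower with the smallest unadjusted p; coloured points are lines, black ticks and bars the mean and its 95% confidence interval. Socs5 and Phlda3 have close values in the 3 lines, while Ddr2 runs from 0.46 in KO1 to 2.90 in KO2. The values of Trir in WT and KO1 start from a listed 0 and depend on the pseudocount and the filter.

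Among the lower genes, Dctn5, a dynactin subunit, was at 67.2 and 94.1 scaled TPM untreated against 66.7 and 59.7 in WT. In KO1 it was at 66.9 and 80.9 against 61.5 and 45.5, and in KO2 at 17.3 and 17.1 against 11.7 and 13.0. Its change was -0.42 ± 0.11 (SE), with an adjusted p of 0.666 in limma. The groups lay apart in each line, though in WT by less than 1 scaled TPM. Naa60, an N-terminal acetyltransferase of the Golgi, had -0.68, Scfd2 had -1.23 and Baiap2, an adaptor of the actin cytoskeleton, had -0.59. Idh3b, a subunit of mitochondrial isocitrate dehydrogenase, had -0.49, and Parva, a focal adhesion protein, had -0.44. Agpat3, an acyltransferase of phospholipid synthesis, had -0.58 and the processed pseudogene Gm12751 -0.77; reads of a pseudogene can come from its parent gene.

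How much of a gene's RNA carries its name differs between these libraries, because the assembly leaves some transcripts unnamed. When unnamed transcripts of the same assembled locus were added to their gene, 25 of the 60 higher genes and 11 of the 28 lower genes still had groups apart in every line. The median change went from 0.81 to 0.50 among the former and from -0.58 to -0.38 among the latter. Ddr2 went from 2.02 to 0.10 and Rnf145 from 1.31 to 0.09, Naa60 from -0.68 to -0.04 and Baiap2 from -0.59 to -0.01. Agpat3 turned to 0.10 and Scfd2 went to -0.41. Socs5 went from 1.25 to 0.76. Phlda3 at 1.03, Oaf at 1.37 and Mfsd5 at 0.62 moved little, as did Dctn5 at -0.40, Idh3b and Parva at -0.39 each and Gm12751 at -0.73.

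No muscle gene was called with the plasmid alone. Myog, an early marker of muscle differentiation, was listed at 0 in all 12 libraries. Myod1 (chromosome 7, 46376474 to 46379099, build mm10) had, in WT, 2.94 and 2.32 TPM with the plasmid against 3.23 and 3.23 without. In the same order, its values were 3.66 and 2.90 against 2.44 and 3.76 TPM in KO1, and 1.39 and 0 against 1.23 and 1.01 TPM in KO2. The groups overlapped in KO1 and KO2. After scaling they overlapped in WT too, at 5.28 and 5.80 scaled TPM with the plasmid against 5.62 and 4.73 without. The gene was too low in KO2 to be tested. Of 19 myogenic regulators 5 were tested and 0 called. Tcf12, an E-protein partner of MyoD, was the one with an unadjusted p under 0.05, with a change of 1.299 and an adjusted p of 0.676 in limma. Its line changes were uneven, at 1.28 in WT, 2.38 in KO1 and 0.24 in KO2. In KO1 it was at 0.930 and 0.411 scaled TPM untreated against 7.24 and 7.94 with the plasmid. Only the plasmid libraries brought it to the tested level in that line. Of 32 sarcomere genes 2 were tested, the tropomyosins Tpm1 at -0.21 and Tpm2 at -0.07, which fibroblasts also make.

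Genes of the IMP2 branch, named here because LncMyoD is known to bind that protein, gave no member called across the lines either. Igf2bp2 was at 12.1 and 9.27 scaled TPM untreated against 9.11 and 10.2 in WT, and at 4.28 and 6.71 against 5.11 and 5.41 in KO2. In KO1 it was at 20.3 and 21.4 untreated against 1.67 and 4.17 with the plasmid. Its groups lay apart in KO1 and overlapped in WT and KO2, and over the lines the change was -0.90 ± 0.41 (SE, adjusted p = 0.764, limma). In KO1 alone the change was -2.56 (adjusted p = 0.0160, limma), so Igf2bp2 is among the 82 genes that passed in that line, given below. With unnamed transcripts of the locus added, the change over the lines was -0.72. Myc, a growth-promoting transcription factor, was at 25.4 and 52.7 against 32.2 and 40.1 scaled TPM in WT, a change over lines of 0.05 with a 95% confidence interval of -0.49 to 0.59. Nras was too low in WT to be tested. Its deposited TPM was 1.06 and 0.374 against 0.0878 and 0.109 in WT, 1.10 and 0.805 against 0 and 0 in KO1, and 39.0 and 88.4 against 76.0 and 77.2 in KO2. Igf2, the fetal growth factor, ranged from 0.132 to 6.93 TPM without and from 0.540 to 1.85 TPM with the plasmid, and H19, the noncoding RNA beside it, stayed at or under 0.535 TPM in all 12 libraries. Of the 18 genes of the list, 4 were tested, 0 were higher and 1 lower at an unadjusted p under 0.05, and the median change was 0.04.

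No gene of growth or cell cycle exit was called. Cdkn1a, the cell cycle inhibitor p21, had the narrowest interval of the genes named at the outset: 0.02 with a 95% confidence interval of -0.13 to 0.17. Its scaled TPM was 205 and 223 against 219 and 235 in WT, 382 and 355 against 323 and 344 in KO1, and 156 and 149 against 172 and 163 in KO2. Of 26 genes of p53 and cell cycle exit 19 were tested, with 1 higher (Phlda3) and 1 lower at an unadjusted p under 0.05. The lower one was Mdm2, the ubiquitin ligase of p53, at -0.57 (adjusted p = 0.745, limma), and the list's median was -0.05. Of 37 cell cycle genes 8 were tested, none at an unadjusted p under 0.05, with a median of -0.11. Mki67, a proliferation marker, was listed at 0 in all KO1 libraries and in 2 of the other 8, and reached at most 6.88 TPM.

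Responses that transfected DNA can raise were looked at as lists of genes. Of 42 interferon response genes 12 were tested, none at an unadjusted p under 0.05, with a median change of 0.12. Ddx58, which encodes the RNA sensor RIG-I, had 1.04 (adjusted p = 0.782, limma), with 2.02 in WT, 1.28 in KO1 and -0.19 in KO2. For sensing of cytosolic DNA and RNA 4 of 20 were tested (median 0.04), for class I antigen presentation 6 of 17 (median 0.06) and for NF-kB and chemokines 14 of 28 (median 0.14), with 0 at an unadjusted p under 0.05 in each. Of 18 tested genes of the ER stress and amino acid response, and of 17 immediate early genes, 0 reached it as well, with medians of 0.12 and -0.05. Heat shock genes had a median of 0.00 over 12 tested. Hspd1, the mitochondrial chaperonin, had 1.54 (adjusted p = 0.666, limma), with 2.71 in WT, 1.65 in KO1 and 0.26 in KO2. In WT it was listed at 0 in both untreated libraries against 6.92 and 4.40 scaled TPM with the plasmid. It was thus tested there through the plasmid libraries alone, and its WT change depends on the pseudocount.

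Among metabolic and structural lists, lysosome and autophagy genes had the most members at an unadjusted p under 0.05. There 4 of 22 tested were higher and 0 lower, against 4.22% and 2.27% of all genes, with a median of 0.08. Lamp1, a membrane protein of the lysosome, had a change of 0.61 ± 0.15 (SE, adjusted p = 0.549, limma) and line changes of 0.79, 0.76 and 0.29. Nrf2 and redox genes had 2 higher of 12 tested (median -0.03), cholesterol synthesis 1 higher of 7 (median -0.02) and glycolysis and hypoxia 1 higher of 14 (median 0.21). Smooth muscle and TGF-beta genes had none at that p among 9 tested (median -0.07), and none was seen among 6 of the chromatin remodeller SWI/SNF (median 0.41). Fibroblast matrix genes had 1 higher of 30 tested and a median of 0.04. Col1a1, the main chain of type I collagen, had a change of 0.00 with a 95% confidence interval of -0.19 to 0.19. Of markers of other cell types, those of macrophage, epithelium, heart, endothelium and skeletal muscle had no member high enough to test. Map2 of neurons had -0.08, Pparg of adipocytes -0.52, and Sox9 and Runx2 of cartilage and bone 0.02 and -0.07, none of them called. In KO2 the summed adipocyte markers ranged from 57.7 to 92.1 TPM without and from 72.9 to 91.0 TPM with the plasmid, and were at most 8.54 TPM in WT and KO1.

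Each line alone gave another picture. In WT 0 genes (0%) passed an adjusted p of 0.05, in KO1 82 (1.53%), of which 53 were higher (0.986%) and 29 lower (0.540%), and in KO2 1 (0.0186%), Col1a2. Of the 82 genes of KO1, 72 had a change of at least 2 on the log2 scale, and in 31 a whole group was listed at 0. In 29 of the 82 the sign was the same in the other lines, as it was in 1455 of all 5374 genes tested. The response differed between lines, by the F test of the line-by-plasmid term, in 23 genes (0.428%), and 381 (7.09%) had an unadjusted p under 0.05. These counts depended on the libraries and the scaling: without the KO2 line KO1 had 10 calls and the line difference 0, and with TPM as deposited 12 and 3. Beside the KO1 calls, the KO1 libraries held 57436 and 35003 assembled transcripts untreated and 72049 and 78657 with the plasmid. The share of TPM in transcripts with a gene name was 43.8% and 30.9% untreated and 51.5% and 55.7% with the plasmid. The part of these in the calls was not tested.

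Col1a2, the second chain of type I collagen, led the line differences (adjusted p = 0.00351, limma F test). In KO2 it was at 6.40 and 4.15 scaled TPM untreated and 683 and 598 with the plasmid, a change of 6.70, while WT had 0.02 and KO1 -1.06. With unnamed transcripts of the locus added, the changes were 0.27 in KO2, 4.87 in WT and -2.82 in KO1. Summed fibroblast markers in KO2, Col1a2 among them, were 11139 and 12906 TPM untreated at the lowest and highest and 15512 and 17214 TPM with the plasmid. Of these sums Col1a2 alone made up 31.9 and 22.5 TPM untreated and 3570 and 3020 TPM with the plasmid. Prrc2a (adjusted p = 0.00821, limma F test) was at 54.8 and 56.6 scaled TPM untreated in KO1 and at 1.82 and 0.389 with the plasmid, a change of -4.84 that became 0.08 with the added transcripts. Camk1, a calcium-dependent kinase (adjusted p = 0.0139, limma F test), was at 0.293 and 0.236 untreated in KO1 and at 15.0 and 17.8 with the plasmid. Its KO1 change of 3.78 became 0.68. Slc25a36, a mitochondrial carrier (adjusted p = 0.0139, limma F test), moved in opposite directions, by -2.58 in WT, 2.37 in KO1 and -2.51 in KO2. These became -0.83, 0.82 and -0.44.

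**Figure D3:**
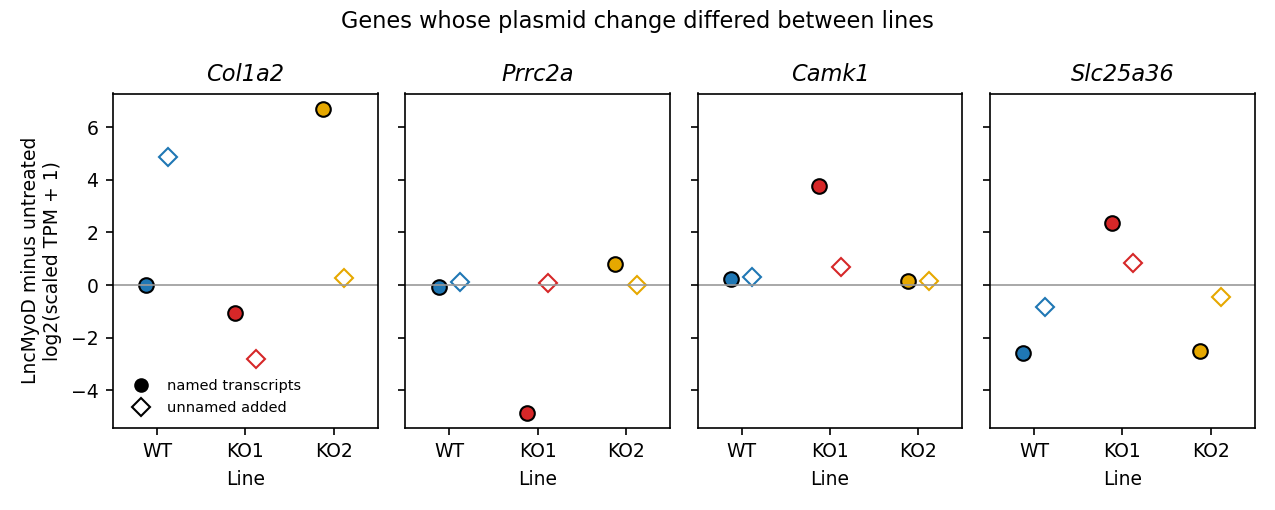
Log2 change with the plasmid (vertical axis, log2 of scaled TPM + 1) in each line for 4 genes among the 5 with the smallest adjusted p of the line difference; filled circles use transcripts that carry the gene's name, open diamonds add unnamed transcripts of its locus. The KO1 change of Prrc2a goes from -4.84 to 0.08 and the KO2 change of Col1a2 from 6.70 to 0.27.

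The 12 libraries given MyoD measure the plasmid response again, with no sample shared. There 0 of 4696 genes were called (0%), the smallest adjusted p in limma was 0.112, and 293 (6.24%) had an unadjusted p under 0.05. Across the 4245 genes tested in both sets, the changes without and with MyoD had Pearson's r of -0.09, and 49.0% had the same sign. Of the 60 genes with higher groups apart in each line, 47 were tested with MyoD, 17 had the same sign and 0 again lay apart above, as 0.767% of all genes did. In 4 of them the groups lay apart in the other direction, where 0.894% of all genes did, and the median over the 47 was -0.24 against 0.06 for all genes. Of the 28 lower genes 21 were tested with MyoD, 5 had the same sign, where 42.9% of all genes tested there were lower, and 0 lay apart below again.

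In 12 of 5314 genes (0.226%) the plasmid response differed with MyoD at an adjusted p under 0.05, and in all 12 it was lower with MyoD. These genes were named after their values were seen. All 12 had a positive change in every line with the plasmid alone, and 11 had a negative change in every line with the plasmid added to MyoD; the other one, Map7d1, was too low to be tested there. They are Vat1, Socs5, Rac1, Cdk16, Phlda3, H1f0, Mospd3, Zfp385a, Tbc1d20, Txnrd1, Pcbp1 and Map7d1. At an unadjusted p under 0.05 there were 371 genes (6.98%), of which 207 (3.90%) were lower with MyoD.

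Vat1, a protein of vesicle membranes, had the smallest p. In KO1 it was at 10.2 and 12.3 TPM untreated, 26.5 and 27.2 with the plasmid, 20.7 and 21.97 with MyoD, and 7.65 and 15.5 with both. In WT it was at 31.6 and 57.4, 86.2 and 64.9, 87.1 and 65.2, and 36.2 and 16.2 TPM in the same order. Libraries given 1 of the agents lay above the untreated ones in WT and KO1, and those given both lay lower again. In KO2 the untreated libraries, at 22.7 and 36.0 TPM, overlapped those with the plasmid, at 51.7 and 33.6 TPM. Those with MyoD, at 37.0 and 37.3 TPM, lay narrowly above the untreated ones and above those with both, at 36.8 and 23.9 TPM. The difference of the plasmid change, with minus without MyoD, was -1.82 ± 0.29 (SE, adjusted p = 0.0169, limma). For Rac1, a GTPase that organises the actin cytoskeleton, it was -2.04 ± 0.34 (SE, adjusted p = 0.0169, limma). Its WT values, which overlap before scaling, were 47.9 and 118 TPM untreated, 130 and 115 with the plasmid, 132 and 133 with MyoD, and 39.6 and 26.8 with both. In KO2 its untreated values, 96.7 and 184 TPM, spanned those with the plasmid, 138 and 152 TPM. Socs5 had a difference of -2.67 (adjusted p = 0.0169, limma): in KO2 it was at 11.3 and 13.0 TPM untreated, 47.4 and 24.7 with the plasmid, 42.8 and 45.6 with MyoD, and 25.3 and 2.24 with both.

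H1f0, the linker histone that builds up in cells leaving the cycle, had a difference of -2.21, and Cdk16, a cyclin Y-dependent kinase, of -2.51 (adjusted p = 0.0205 each, limma). In WT, H1f0 was at 31.0 and 77.6 TPM untreated, 105 and 117 with the plasmid, 98.3 and 101 with MyoD, and 31.4 and 27.2 with both. In KO2 its untreated values, 249.9 and 528 TPM, spanned those with the plasmid, 428 and 444 TPM. Phlda3 had a difference of -1.69, Mospd3 of -1.65 and Zfp385a, an RNA-binding zinc finger protein, of -1.57. Tbc1d20, a GTPase-activating protein of Rab1, had a difference of -2.42 and Txnrd1, the cytosolic thioredoxin reductase, of -4.12. Pcbp1, an RNA-binding protein that recognises cytosine runs, had the smallest difference, -0.74 ± 0.15 (SE), and Map7d1, a microtubule protein, had -2.91. Map7d1 was listed at 0 or near it in most KO1 libraries, so its value depends on the pseudocount. In KO1 only the libraries with the plasmid alone, at 8.05 and 4.57 TPM scaled over the 24 libraries, brought it to the tested level. With unnamed transcripts of the locus added, the differences became -1.27 for Txnrd1, -0.78 for Tbc1d20, -2.004 for Map7d1 and -1.30 for Zfp385a, none of them called, while Vat1, Socs5, Rac1, Cdk16, Phlda3, H1f0 and Mospd3 stayed called. Cdk16 then had -1.71 and Socs5 -1.57, and Pcbp1 had an adjusted p of 0.0542 in limma.

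**Figure D4:**
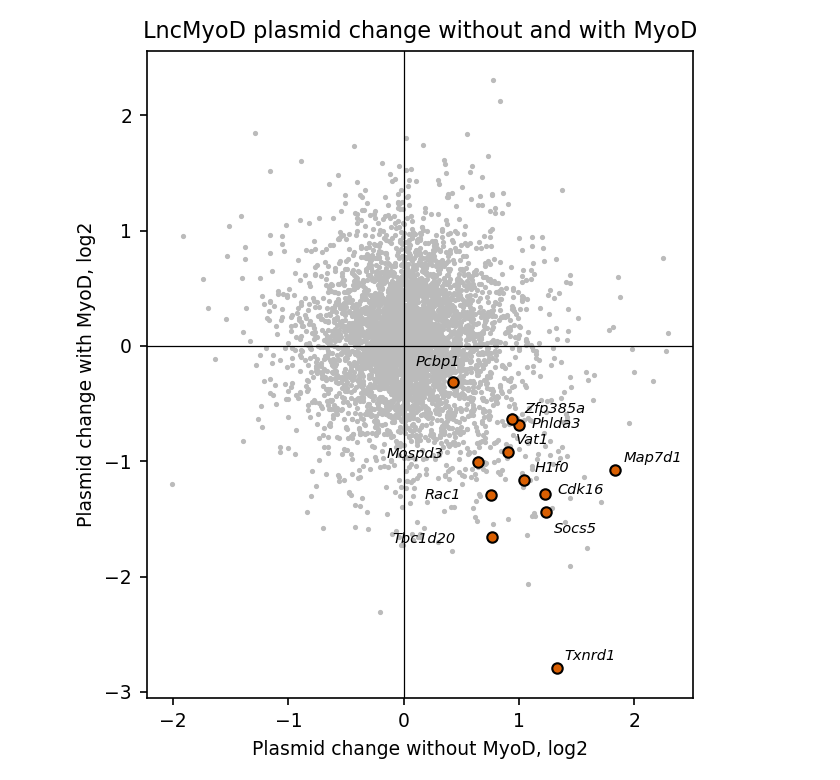
Log2 change with the plasmid alone (horizontal axis) against the change with the plasmid added to MyoD (vertical axis) for the 5314 genes tested in all 24 libraries; orange points are the 12 genes whose 2 changes differed. All 12 lie to the right of 0 and below it, where Pearson's r over the 4245 genes tested in both sets was -0.09.

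**Figure D5:**
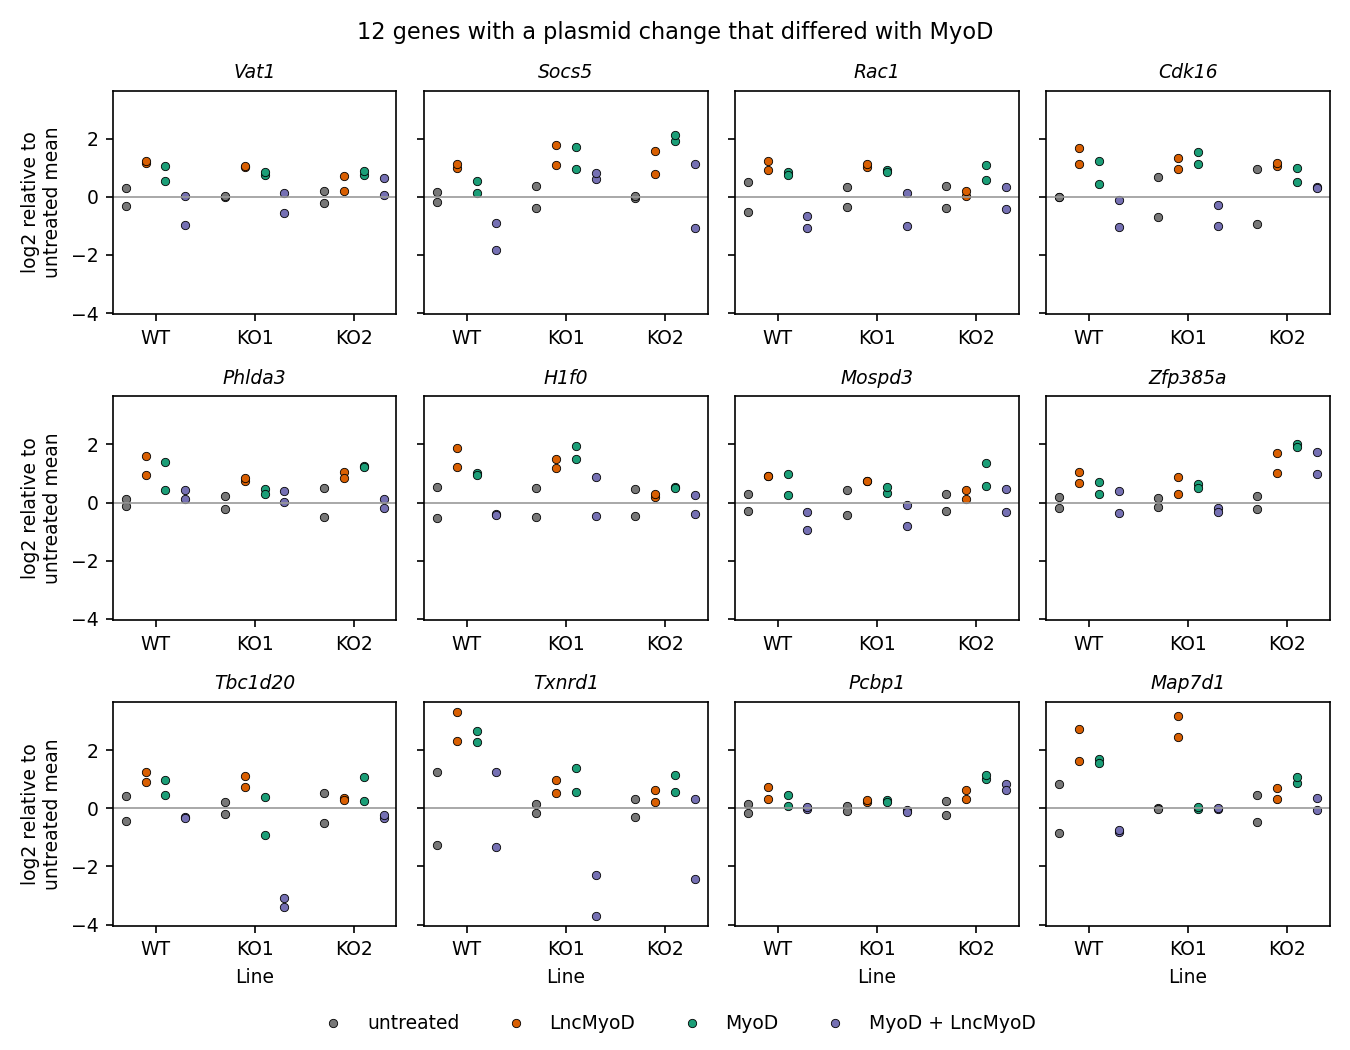
Level of the 12 genes in each of the 24 libraries (vertical axis, log2 of scaled TPM + 1, relative to the mean of the untreated libraries of the line), by line and treatment. For Vat1 and Rac1 in WT and KO1 the plasmid and MyoD libraries lie above the untreated ones and the libraries given both lie lower, and in KO2 the groups are closer.

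The number of assembled transcripts moved in the same direction as these genes in WT and KO1, and in KO2 only with MyoD. Between untreated and plasmid libraries it differed by 3771 in WT, 29134 in KO1 and -5136 in KO2, and between MyoD libraries without and with the plasmid by -6096, -18751 and -9442. Depth differed by 0.495, 1.24 and -0.685 gigabases without MyoD and by -0.121, -0.815 and -0.983 gigabases with it. The part of these in the result was not tested. The count of 12 also rests on each line: it was 0 without WT, 0 without KO1, 4 without KO2 and 0 without the second plasmid library of WT, with every one of the 12 still lower with MyoD in the last of these (adjusted p from 0.0523 to 0.101, limma).

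Because MyoD binds the E-box letters CAGCTG, the start sites of the 12 genes were searched for them. The 250 bases before each RefSeq start (build GRCm38.p6) were available for 10 of the 12 genes, as 16 windows. The letters, which read the same on both strands, were in 1 of the 16 windows, at Zfp385a, against 13.0% of the 32851 windows in the table. Both windows below are on the minus strand and end at the base before the start. Vat1 (chr11:101466200-101466449) is shown as the gene with the smallest p, and the start of Zfp385a that holds the letters (chr15:103334339-103334588) has them in capitals.
Vat1: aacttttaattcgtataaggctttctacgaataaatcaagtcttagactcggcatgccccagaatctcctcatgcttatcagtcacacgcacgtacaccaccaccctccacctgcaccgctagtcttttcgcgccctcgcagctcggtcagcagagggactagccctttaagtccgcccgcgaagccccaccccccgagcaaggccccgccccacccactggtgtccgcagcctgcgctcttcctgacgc
Zfp385a: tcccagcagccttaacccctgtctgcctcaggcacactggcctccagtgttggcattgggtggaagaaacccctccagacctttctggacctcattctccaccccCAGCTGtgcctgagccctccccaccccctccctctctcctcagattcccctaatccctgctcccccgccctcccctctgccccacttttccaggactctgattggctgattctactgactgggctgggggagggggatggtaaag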

How the data were processed

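RNA of 24 libraries was sequenced as paired reads of 100 nt; 12 of them, without MyoD, form the comparison. The submitters' processing notes name Trimmomatic 0.36, HISAT2 2.1.0, SAMtools 1.3, StringTie 1.3.3 and mm10, while the file headers give StringTie 2.1.2 with GENCODE vM21. The authors deposited, per assembled transcript, coverage, FPKM and TPM; depth came from the ratio of coverage to FPKM. Reads behind a value are unknown, so no counting interval is given. The kit does not mark strand, so overlapping genes are uncertain.

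TPM was summed by reference gene over 35260 genes. It was scaled by the median of ratios over 6868 genes above 0 in every library, with factors of 0.310 to 0.683 in WT and KO1 and 4.99 to 5.41 in KO2. Genes with a mean of at least 1 scaled TPM in each line were tested on log2(scaled TPM + 1) with line as a block, by limma 3.58.1 in R 4.3.3 with the prior variance following the mean. That scale understates changes of low genes. The mean of a line covers both of its arms, so a gene near 0 in 1 arm can be tested through the other alone. Differences between lines and with MyoD (24 libraries) were interaction terms. A call needed a Benjamini-Hochberg adjusted p under 0.05 and, across lines, 1 sign. The fit of the plasmid change across lines was tested on simulated data, and the interaction terms were not.

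Named were 11 genes or loci set at the outset, for want of calls 8 genes higher and 8 lower whose groups did not overlap in any line, by unadjusted p, up to 2 genes of smallest p per list (19 pathway and 9 marker lists) and the 5 strongest line differences, 1 of which is not reported here. The comparison, members and lists were chosen with earlier results of these data known. Alternatives were other scaling, pseudocount, filters, gene values and blocks, and leaving out libraries or lines. Scaling within lines, and most settings for the lines taken singly, for the difference between lines and for the libraries with MyoD, were added after seeing the data.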

Additional observations from a re-analysis of the deposited data

Results flagged for a closer look

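The plasmid response differed between lines, by the limma F test over the 12 libraries without MyoD, with adjusted p of 0.00351 for Col1a2, 0.00821 for Prrc2a, 0.0139 for Camk1 and 0.0139 for Slc25a36. It differed with MyoD, by the limma interaction over 24 libraries, with adjusted p of 0.0169 for Vat1, Socs5 and Rac1, 0.0205 for Cdk16, Phlda3 and H1f0, 0.0259 for Mospd3, 0.0277 for Zfp385a and Tbc1d20, 0.0354 for Txnrd1, and 0.0429 for Pcbp1 and Map7d1.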

How the results depend on the processing

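The count of 0 called genes held in 12 of 12 fits without 1 library and was 1 without line KO1 (Slc25a36, lower) and 1 without line KO2 (Rtn4ip1, higher). In WT alone the count of 0 became 3 with quantile normalization, 1 with scaling within each line, 8 with a pseudocount of 0.1, 64 with no filter, 12 with exon coverage per gene, 1 with unnamed transcripts added and 113 without line KO1, and ranged from 0 to 27 without 1 library. In KO1 the 82 became 12 with TPM as deposited, 36 with quantile normalization, 21 with scaling within each line, 125 with a pseudocount of 0.1, 18 with a mean of at least 5 scaled TPM, 393 with no filter and 10 without line KO2, and ranged from 32 to 294. In KO2 the 1 became 2 with TPM as deposited, 2 with scaling within each line, 0 with a mean of at least 5, 37 with no filter, 5 with exon coverage, 3 with unnamed transcripts added and 2 without line WT, and ranged from 1 to 7. The 23 line differences became 3 with TPM as deposited, 12 with quantile normalization, 5 with scaling within each line, 52 with a pseudocount of 0.1, 2 with a mean of at least 5, 10 with no filter, 43 with exon coverage and 38 with unnamed transcripts added. They became 6, 3 and 0 without lines WT, KO1 and KO2, and ranged from 2 to 115 without 1 library.

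The 12 differences with MyoD became 6 with a pseudocount of 0.1, 0 with no filter, 6 with exon coverage, and 0, 0 and 4 without lines WT, KO1 and KO2. Over the settings other than leaving out 1 library, Zfp385a was called in 1 of 11, Map7d1 in 0 of 7, Pcbp1 in 2 of 12 and Txnrd1 and Tbc1d20 in 4 of 12 each, with differences from -5.26 to -1.27 for Txnrd1 and from -3.25 to -0.78 for Tbc1d20; the other 7 genes were called in 6 to 9 of 12. Without 1 library they ranged from 0 (second plasmid library of WT) to 14. There were 3 without the first MyoD library of WT, 5 without the first MyoD library of KO2, and 6 without the first plasmid library of WT, KO1 or KO2 or the second of KO1. There were 7 without the first untreated library of WT or KO2, the second untreated or MyoD library of KO1, or the second KO2 library given both. Genes at an unadjusted p under 0.05 went from 349 to 220 with TPM as deposited, 124 with a mean of at least 5 scaled TPM and 899 with no filter. The locus difference was 25.2 TPM without line WT, 8.88 without KO1 and 22.6 without KO2, where 2 lines cannot reach an exact p of 0.05, and 18.0 to 19.8 without 1 library. The difference of the named-gene share of TPM ranged from 2.09 to 13.3 percentage points without 1 library. The KO1 change of Prrc2a turned from -4.84 to 0.077 with unnamed transcripts added. The causes of these shifts were not tested, beyond the fewer genes or libraries of some settings.

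Same-numbered libraries did not deviate together (correlation across genes 0.02 in WT, -0.02 in KO1 and 0.01 in KO2). This cannot settle whether a number marks a shared culture or day, which the labels do not say. With a replicate block 0 genes were called for the plasmid alone, 307 had an unadjusted p under 0.05, and the 12 differences with MyoD became 6.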
